A study of Mus musculus with 4 samples.

Results

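The 9 genes described here encode the regulators of mitochondrial biogenesis that surround nuclear respiratory factor 1: Nrf1 itself, Gabpa, the PGC-1 coactivator genes Ppargc1a, Ppargc1b and Pprc1, the estrogen-related receptor genes Esrra, Esrrb and Esrrg, and Nfe2l1, whose product is a different protein that is also called NRF1. They were taken by gene symbol from the 24062 genes of the count table, and all 9 passed the filter that left 15762 genes for testing. RNA-seq was done on whole retinas of E13.5 mouse embryos of a mixed C57BL/6 and 129 background, with 2 wildtype libraries and 2 libraries of the Nrf1-CKO genotype, Nrf1 f/f;Six3-Cre, called mutant here. Whether the wildtype embryos carried the floxed allele or the transgene is not given in the sources used here. In the mutant, Cre driven by the Six3 transgene starts in the central retina before this age, so that peripheral cells can keep an intact allele, and the floxed allele derives from 1 targeted embryonic stem cell clone. Retinas of several littermates were pooled for RNA. The methods describe the experiment as done in duplicate without saying whether the replicates were separate pools of embryos, so p-values measure the spread between these libraries, which may be technical.

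NRF1 binds GC-rich palindromic sites as a dimer in the promoters of nuclear genes for the respiratory chain and for mitochondrial DNA upkeep. GABPA is the DNA-binding subunit of a second nuclear respiratory factor, an ETS protein that works with GABPB1 or GABPB2. The PGC-1 coactivators do not bind DNA themselves but are recruited by NRF1, GABP and the estrogen-related receptors, and in many tissues their supply adjusts mitochondrial gene expression to energy demand.

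The floxed allele removes exon 4 of Nrf1, and the sequence of this exon shows what gene-level counts could and could not register. Nrf1 lies on chromosome 6 of GRCm38 (mm10), from 30047988 to 30153458 on the plus strand. In the GENCODE transcript Nrf1-211, which has 12 exons and 3584 bases, exon 4 spans 30095340 to 30095454, is coding and is 115 bases long, or 3.21% of the transcript. It is shown in capitals, with 15 bases of exon 3 before it and 15 bases of exon 5 after it. In the next line exon 3 is joined to exon 5, and the capitals mark the first stop codon of the shifted frame.
Nrf1 exon 4 with flanks: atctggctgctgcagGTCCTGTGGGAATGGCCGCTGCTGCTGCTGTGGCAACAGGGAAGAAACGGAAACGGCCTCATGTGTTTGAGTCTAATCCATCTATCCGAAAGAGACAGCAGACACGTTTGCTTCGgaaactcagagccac
Nrf1 exon 3 joined to exon 5: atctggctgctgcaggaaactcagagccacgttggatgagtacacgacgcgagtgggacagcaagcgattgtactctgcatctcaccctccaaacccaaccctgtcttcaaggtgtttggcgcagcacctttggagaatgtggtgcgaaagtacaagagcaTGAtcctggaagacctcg
The length of exon 4 is not a multiple of 3, since 1 base remains. The annotated reading frame holds 503 codons, of which 74 are complete before exon 4. Read without exon 4, the frame would reach a stop after 123 codons, in exon 6, with 864 bases left before the last exon junction. These are properties of the annotated transcript; reads over the junction were not used here.

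The 4 libraries held between 74577660 and 85933945 reads on genes. Of the 15762 genes tested, 3292 (20.9%) were called, that is, differed at least 1.4-fold with an adjusted p of at most 0.2 in edgeR's quasi-likelihood test. Retinal progenitor markers were abundant in all libraries, with a summed 8270 and 8910 CPM in wildtype and 6450 and 7030 CPM in the mutant (read counts scaled to library size with TMM factors). The genotypes differed widely in markers of other cells. Of the retinal ganglion cell markers, 11 of 12 were called lower, with a summed 1970 and 2220 CPM in wildtype and 785 and 602 CPM in the mutant. Lens markers were called higher in 11 of 11, with sums of 193 and 474 CPM in wildtype and 9200 and 3780 CPM in the mutant, so that mutant replicate 1 stood apart. Macrophage and microglia markers were higher in 10 of 10 (82.4 and 76.4 against 248 and 298 CPM), pigment epithelium markers in 6 of 9 (230 and 167 against 418 and 444 CPM) and periocular mesenchyme markers in 7 of 9 (245 and 178 against 396 and 337 CPM). Of the endothelial markers, 6 of 8 were higher and 1 lower (270 and 273 against 290 and 282 CPM in sum, and 70.1 and 62.0 against 146 and 145 CPM without Kdr, the 1 that was lower, left out after its values were seen). Of the erythroid markers 3 of 6 tested were higher (559 and 658 against 726 and 726 CPM), and 2 listed erythroid genes were at 0 in all libraries. Progenitor markers were lower in 3 of 12 and photoreceptor precursor markers in 2 of 6, the latter with sums of 357 and 364 against 312 and 316 CPM. These lists differed between the genotypes to varying extents. The part of these cells in the values of the regulators, and of the genes around them described below, was not tested. In RNA of whole tissue, fewer cells of a type and less RNA per cell cannot be told apart.

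Of the 9 regulators, 2 were called higher in the mutant, where 12.8% of all tested genes were, and 1 was called lower, where 8.04% were. The 2 that rose were the coactivator genes Ppargc1a and Ppargc1b, and the called lower gene was the weakly expressed Esrrb. The other 6, Nrf1 and Gabpa among them, were not called. The mutant libraries both lay beyond both wildtype libraries for 5 of the 9 (55.6%), compared with 62.5% of all tested genes.

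**Figure D1:**
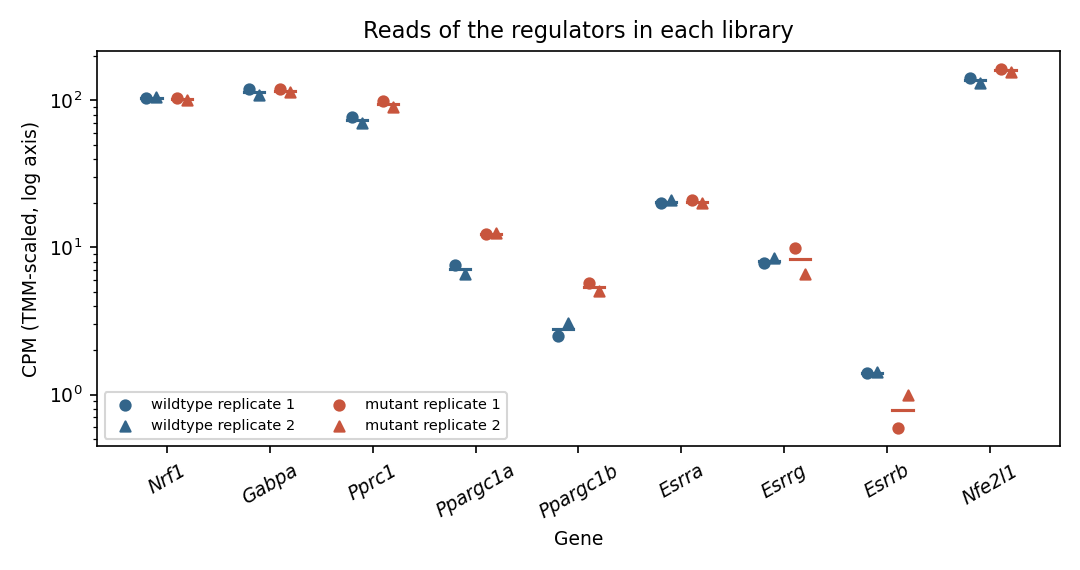
CPM (log axis) of the 9 regulators in each library, with wildtype in blue, mutant in red, circles for replicate 1, triangles for replicate 2 and bars for genotype means. Both mutant libraries lie above both wildtype libraries for Ppargc1a, Ppargc1b, Pprc1 and Nfe2l1 and below them for Esrrb.

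The gene that was targeted, Nrf1, kept its total read count. It had 9052 and 7789 reads in wildtype and 8594 and 8284 in the mutant, or 103 and 105 CPM against 103 and 100.1 CPM. The libraries of the genotypes overlapped. The means were 104 ± 1.17 and 102 ± 2.35 CPM (SD, n = 2), a log2 fold change of -0.03 with a standard error of 0.07 (adjusted p = 0.794). The 95% interval of the mutant over wildtype ratio of total Nrf1 reads, 0.87 to 1.10, lay inside 1.4-fold in either direction. It covers only counting error and the spread of these libraries, which may be technical. The counts cover the whole gene, nearly all of which lies outside the deleted exon, so this value does not check the deletion or the genotype labels.

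Gabpa, on chromosome 16 from 84834925 to 84863779, had 10514 and 8005 reads in wildtype and 9919 and 9376 in the mutant. These are 120.04 and 108 CPM against 119 and 113 CPM, and both mutant libraries lay within the wildtype range. Its log2 fold change was 0.03 (95% interval -0.16 to 0.22, adjusted p = 0.842). Exons of Gabpa share 397 bases with Atp5j on the opposite strand, and whether the counting used strand is not given in the sources used here. Its partner subunits were not called either. Gabpb1 had 51.6 ± 1.04 CPM in wildtype and 45.3 ± 3.03 in the mutant (log2 fold change -0.19, adjusted p = 0.143), a difference smaller than 1.4-fold. Gabpb2 had 124 and 116 CPM in wildtype and 129 and 135 CPM in the mutant (0.14, adjusted p = 0.26).

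Among the PGC-1 coactivators, Ppargc1a, which encodes PGC-1alpha, rose. The gene lies on chromosome 5 from 51454250 to 51567726 on the minus strand and had 669 and 489 reads in wildtype and 1025 and 1031 in the mutant. These correspond to 7.64 and 6.59 CPM in wildtype and 12.3 and 12.5 CPM in the mutant, and the genotypes did not overlap. The means of 7.12 ± 0.74 and 12.4 ± 0.087 CPM (SD, n = 2) gave a 1.74-fold higher level (log2 fold change 0.80, standard error 0.14, adjusted p = 0.00355), with a 95% interval of 1.4 to 2.17 for the ratio.

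Ppargc1b, which encodes PGC-1beta, rose as well. It lies on chromosome 18 from 61298136 to 61400431 and had 220 and 227 reads in wildtype and 477 and 420 in the mutant. In CPM these were 2.51 and 3.06 against 5.74 and 5.08, again without overlap. The mean went from 2.79 ± 0.388 to 5.41 ± 0.47 CPM, a 1.94-fold higher level (log2 fold change 0.96, standard error 0.21, adjusted p = 0.0103) with a 95% interval of 1.4 to 2.69. On the authors' normalized log2 values the difference was 0.45 (limma, adjusted p = 0.0178), which is below the 1.4-fold threshold. It need not equal a fold change of counts. On those values the low-count Esrrb was at -0.23, against -0.83 in edgeR, while Pprc1, with many reads, was at 0.34 against 0.36. For Ppargc1a and for Ppargc1b the lower bound of the edgeR ratio lay close to the 1.4-fold threshold.

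Pprc1, whose product PRC is the coactivator of the family linked to growth signals, had far more reads than the other two and a smaller difference. It had 6776 and 5172 reads in wildtype and 8212 and 7418 in the mutant, that is 77.4 and 69.7 CPM against 98.8 and 89.6 CPM. Both mutant libraries were above both wildtype libraries. The ratio was 1.28 with a 95% interval of 1.12 to 1.47 (log2 fold change 0.36, standard error 0.09, adjusted p = 0.0189), so that Pprc1 passed the p threshold but not the fold threshold. Pprc1, on chromosome 19 from 46044886 to 46072915, shares 177 exonic bases with Ldb1 on the opposite strand.

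**Figure D2:**
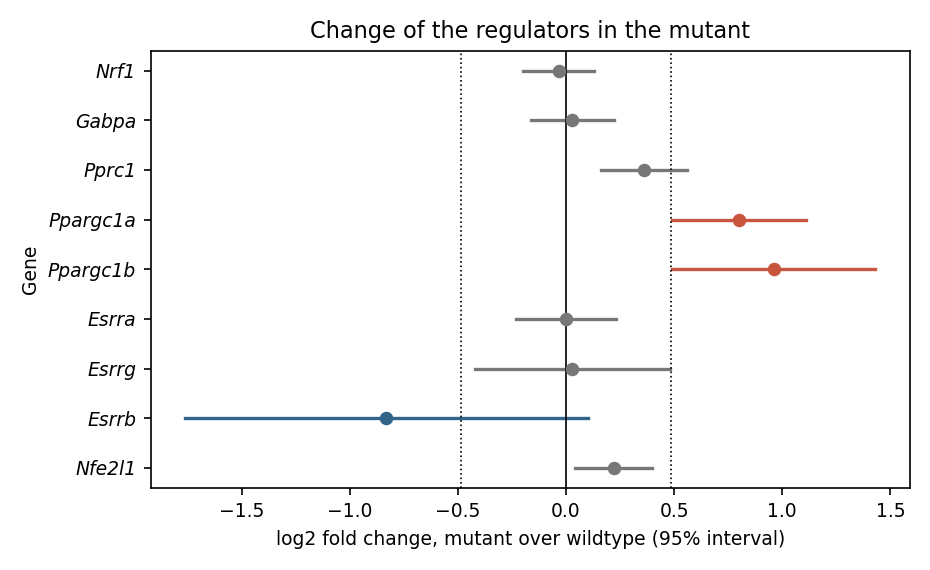
Log2 fold change of each regulator, mutant over wildtype, with its 95% interval from edgeR (n = 2 libraries per genotype). Dotted lines mark 1.4-fold, red is called higher, blue called lower and grey not called. The intervals of Ppargc1a, Ppargc1b, Pprc1 and Nfe2l1 lie above 0, and that of Esrrb reaches past 0.

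The estrogen-related receptors are orphan nuclear receptors through which the PGC-1 coactivators act on genes of fatty acid oxidation and the tricarboxylic acid cycle. Esrra, the most abundant of them here, had 1743 and 1559 reads in wildtype and 1732 and 1667 in the mutant. The corresponding 19.9 and 21.02 CPM against 20.8 and 20.1 CPM overlapped. Its log2 fold change was 0.0029 (95% interval -0.23 to 0.23, adjusted p = 0.989 from edgeR). For these libraries the interval lay inside 1.4-fold in either direction. Esrra, on chromosome 19 from 6910977 to 6921813, shares 91 exonic bases with Mir6990 and 73 with Trmt112.

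Esrrg, a receptor of tissues with high oxidative demand, had 684 and 626 reads in wildtype and 829 and 550 in the mutant. The wildtype libraries, at 7.81 and 8.44 CPM, lay between the mutant libraries, at 9.98 and 6.65 CPM. Its log2 fold change was 0.03 (95% interval -0.42 to 0.48, adjusted p = 0.928), and it was -0.29 without mutant replicate 1 and 0.30 without mutant replicate 2. Esrrg is on chromosome 1 from 187608791 to 188214885.

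Esrrb, known for its roles in pluripotent cells and in rod photoreceptors, had few reads, 122 and 105 in wildtype and 49 and 82 in the mutant. In CPM these were 1.39 and 1.42 against 0.59 and 0.991, without overlap but with a wide spread in the mutant. The ratio was 0.563 (log2 fold change -0.83, standard error 0.41, adjusted p = 0.19), and its 95% interval of 0.296 to 1.07 includes no change. The call was lost in 8 of 14 alternative analyses, including DESeq2 (adjusted p = 0.264). Left out in turn, wildtype replicate 1, wildtype replicate 2 and mutant replicate 1 each ended it (adjusted p = 0.352, 0.363 and 0.554), with log2 fold changes of -0.83, -0.81 and -0.50. Without mutant replicate 2 the log2 fold change was -1.25. Esrrb is on chromosome 12 from 86361117 to 86521628.

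Nfe2l1 encodes a membrane-bound CNC factor of the endoplasmic reticulum that restores proteasome genes under proteasome stress, and it is a member here because its protein shares the name NRF1. It had 12492 and 9784 reads in wildtype and 13600 and 12897 in the mutant. Its 143 and 132 CPM in wildtype lay below the 164 and 156 CPM in the mutant. The ratio of 1.16 was below the fold threshold (log2 fold change 0.22, standard error 0.08, adjusted p = 0.0812). Nfe2l1 is on chromosome 11 from 96817414 to 96829968.

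Levels were compared between genes per length, as RPKM (CPM divided by the kilobases of merged exons). In wildtype, mean RPKM fell in the order Nfe2l1 25.2, Gabpa 20.0, Pprc1 11.7, Nrf1 10.1, Esrra 4.66, Esrrg 1.31, Ppargc1a 1.08, Ppargc1b 0.698 and Esrrb 0.232. No neighbours in this order overlapped between the wildtype libraries. In the mutant, Ppargc1a (1.87 and 1.89 RPKM) stood above Esrrg (1.61 and 1.07 RPKM), and Ppargc1b (1.44 and 1.27 RPKM) lay within the range of Esrrg. The place of Nrf1 depended on the length used, because its merged exons span 10282 bases and its longest coding transcript 3584. Per base of the longest coding transcript, Nrf1 (28.8 and 29.3 RPKM in wildtype) lay within the range of Nfe2l1 (30.6 and 28.3 RPKM) and above Gabpa (24.1 and 21.6 RPKM). On merged exons, 67.5% of 14985 tested genes with a length were below Nrf1 in wildtype, 26.6% were below Ppargc1a and 22.7% below Ppargc1b.

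The genes around these regulators were described in 4 lists. Of the partners and upstream regulators, 29 of 30 were tested, 4 were called higher (13.8%, against 12.8% of all tested genes) and 0 lower, with a median log2 fold change of 0.06 against 0 for all genes. By unadjusted p under 0.05 in edgeR, 4 were lower and 5 higher, where 16.9% and 17.9% of all tested genes were. DESeq2 called 0 lower and 4 higher, and over all genes it called 6.44% lower and 10.2% higher. Mef2c, a MADS-box factor that acts on the Ppargc1a promoter in muscle, had 506 and 434 reads in wildtype and 1409 and 1108 in the mutant. Its level rose from 5.81 ± 0.052 to 15.2 ± 2.52 CPM (log2 fold change 1.38, standard error 0.15, adjusted p = 0.000372). Myc, a growth-promoting factor, rose from 18.4 ± 1.76 to 32.1 ± 2.17 CPM (0.80, adjusted p = 0.00107). Tfeb, a regulator of lysosomal genes that also acts on Ppargc1a, rose from 4.07 ± 0.189 to 6.70 ± 0.795 CPM (0.72, adjusted p = 0.0192). The fourth was Foxo1, named here after its values were seen, at 12.2 ± 1.20 and 17.2 ± 2.7 CPM (0.49, adjusted p = 0.0379). Foxo1 was called in 9 of 14 alternative analyses, and its log2 fold change was 0.40 without wildtype replicate 2 and 0.32 without mutant replicate 1, where it was not called. The genotypes did not overlap for any of the 4. Yy1 (0.04), Thap11 (-0.04) and its cofactor gene Hcfc1 (0.08) had log2 fold changes near 0 and were not called (adjusted p = 0.785, 0.777 and 0.531).

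**Figure D3:**
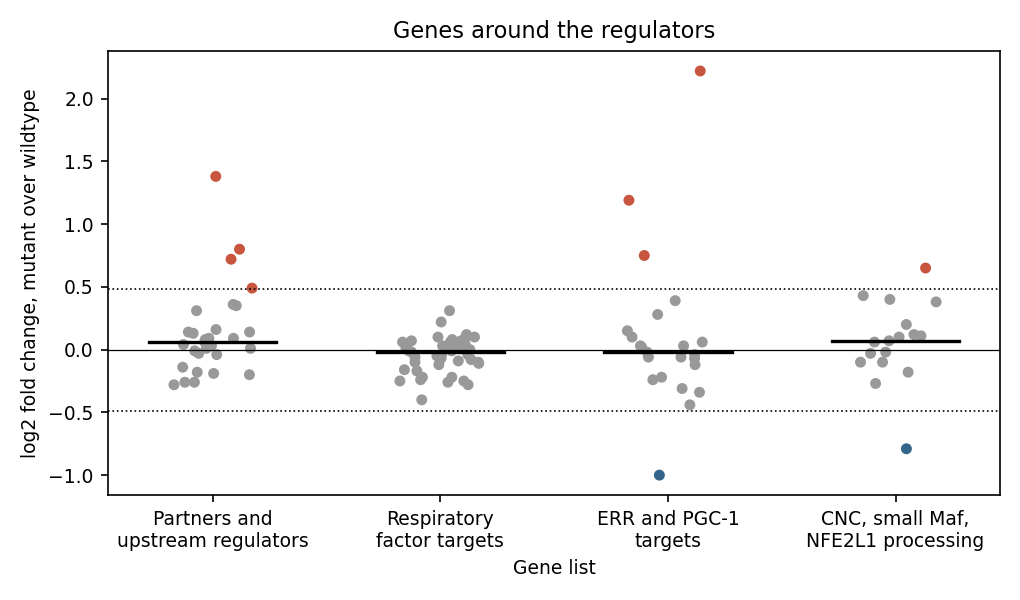
Log2 fold change, mutant over wildtype, of every tested gene of the 4 lists, 1 point per gene, with red for called higher, blue for called lower, grey for not called, black bars for list medians and dotted lines at 1.4-fold. All 43 respiratory factor targets lie between -0.40 and 0.31, inside the dotted lines.

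None of the 43 respiratory factor targets was called in either direction by edgeR or by DESeq2. Over all tested genes edgeR called 12.8% higher and 8.04% lower, and DESeq2 10.2% and 6.44%. The 43 genes are targets by list only, and binding of NRF1 or GABP to them was not measured here. They comprise genes for mitochondrial DNA transcription and replication, cytochrome c oxidase and other respiratory subunits, protein import and heme synthesis. Their log2 fold changes ranged from -0.40 to 0.31 with a median of -0.02, and 26 were negative and 17 positive. The median was -0.076 without mutant replicate 2 and 0.024 with upper-quartile scaling. At an unadjusted p under 0.05, 6 of the 43 were lower and 0 higher, against 16.9% and 17.9% of all tested genes. At an adjusted p of at most 0.2 and any fold, 9 were lower and 0 higher, against 19.5% and 20.4%, and all 9 differences were smaller than 1.4-fold. The most changed of them, chosen after the values were seen, was Alas1, which encodes the first enzyme of heme synthesis. Alas1 had 46.3 and 45.6 CPM in wildtype and 35.1 and 34.6 CPM in the mutant. The ratio of mutant to wildtype was 0.758 (log2 fold change -0.40, standard error 0.08, adjusted p = 0.00695). Tfam, which packages mitochondrial DNA, had 58.4 and 52.8 CPM in wildtype and 49.04 and 54.3 CPM in the mutant, and the genotypes overlapped (-0.11, standard error 0.09, adjusted p = 0.44). The mitochondrial transcription factor genes Tfb1m (-0.04, adjusted p = 0.857) and Tfb2m (-0.01, adjusted p = 0.97) and the cytochrome c gene Cycs (0.03, adjusted p = 0.92) were not called. Cycs, at 6.79 ± 0.323 and 6.95 ± 1.32 CPM, has many processed copies in the genome, so that its unique reads are an uncertain measure.

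Of the targets of the estrogen-related receptors and PGC-1, 23 of 25 were tested, with a median of -0.02. Of these, 3 were called higher (13.0%, against 12.8% of all tested genes) and 1 lower (4.35%, against 8.04%). By unadjusted p under 0.05 in edgeR, 3 were lower and 5 higher, against 16.9% and 17.9% of all tested genes. DESeq2 called 1 lower and 3 higher, against 6.44% and 10.2% over all genes. Cpt1a, which brings long-chain fatty acids into mitochondria, rose from 25.5 ± 0.0304 to 58.1 ± 5.06 CPM (log2 fold change 1.19, standard error 0.09, adjusted p = 9.88e-05). Ucp2, an inner membrane carrier, had 14.02 and 13.8 CPM in wildtype and 23.0 and 23.8 CPM in the mutant (0.75, standard error 0.10, adjusted p = 0.00111). Pdk4, a kinase that turns off pyruvate dehydrogenase and is named here after its values were seen, had 3 and 12 reads in wildtype and 28 and 47 in the mutant (2.22, standard error 0.85, adjusted p = 0.0951). Its size depended on single libraries, with a log2 fold change of 1.48 without wildtype replicate 1, 3.67 without wildtype replicate 2, 2.55 without mutant replicate 1 and 1.79 without mutant replicate 2. Its call was lost without wildtype replicate 1 (adjusted p = 0.356), without mutant replicate 2 (adjusted p = 0.407) and in 4 other of 14 alternative analyses, in 1 of them because Pdk4 was under a stricter filter. Ckmt1, the ubiquitous mitochondrial creatine kinase gene of energy-demanding cells such as neurons, fell from 2.34 ± 0.108 to 1.17 ± 0.123 CPM (-1.0, standard error 0.30, adjusted p = 0.0432). Without wildtype replicate 2 this list had 3 genes called lower, and without mutant replicate 1 it had 2. Among 112 genes of the 4 lists, Ucp2, Cpt1a and Tfeb had the profiles closest to that of Ppargc1b over the 4 libraries, with a root mean square difference of centred log2 CPM of 0.171, 0.198 and 0.204. By this measure genes with a similar difference between genotypes come out close (log2 fold change 0.75, 1.19 and 0.72, against 0.96). The ranking is therefore not independent of the calls, and shared regulation was not tested.

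Around Nfe2l1, 17 CNC factors, small Maf factors and genes of NFE2L1 processing were tested, with a median of 0.07 that was 0.029 without mutant replicate 2. Of these, 1 was called higher and 1 lower (5.88% each, against 12.8% and 8.04% of all tested genes). By unadjusted p under 0.05 in edgeR, 2 were lower and 5 higher, against 16.9% and 17.9% of all tested genes. DESeq2 called 1 lower and 1 higher, against 6.44% and 10.2% over all genes. Mafk, a small Maf protein that pairs with CNC factors, rose from 6.90 ± 0.188 to 10.8 ± 0.85 CPM (log2 fold change 0.65, standard error 0.14, adjusted p = 0.0103). Nfe2l3, a close relative of Nfe2l1, fell from 2.37 ± 0.191 to 1.37 ± 0.0301 CPM (-0.79, standard error 0.29, adjusted p = 0.0845). The call for a lower gene was lost without wildtype replicate 2 or mutant replicate 2, and without mutant replicate 2 there were 2 genes called higher. Nfe2l2, the main factor of the antioxidant response, had 27.9 and 28.7 CPM in wildtype and 38.6 and 37.8 CPM in the mutant. Its genotypes did not overlap, but the difference was smaller than 1.4-fold (0.43, standard error 0.08, adjusted p = 0.00648).

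The promoters of the regulators and of all other genes were searched for the sites of these factors, on both strands, in windows from 250 bases before to 50 bases after each start site (RefSeq, GRCm38.p6; 8 of the 9 regulators matched by symbol, and Ppargc1b was not searched). The full NRF1 site, the palindrome of 10 letters capitalised in the Alas1 line, was in 0.971% of 32851 promoters, its shorter form GCGCATGC, which every full site contains, in 2.71%, the GABP site CCGGAAGT in 3.89%, the estrogen-related receptor site TNAAGGTCA in 1.28%, the CREB site TGACGTCA in 1.79%, and the antioxidant site TGACNNNGC in 12.4%. Among the regulators, Esrra held the shorter NRF1 form, with its first base 34 bases before the start site, and Pprc1 and Esrrg each held an antioxidant site. No other match was found in the windows of the 8 regulators searched. The sites below, in capitals with 10 bases on each side (Uqcrc1 ends at the window's edge), are those of Esrra, of Cycs and Polrmt as examples of the shorter form, and of the 4 listed genes that hold the full site. Tfb2m, Sdhb, Acadm and Ogt also hold the shorter form and are not shown. A match is a description of letters and no evidence of binding.
Esrra (chr19:6921825-6921852, minus strand): cccctgttttGCATGCGCaggccggccc
Cycs (chr6:50566612-50566639, minus strand): atgctagctcGCATGCGCgcgcacaaac
Polrmt (chr10:79746697-79746724, minus strand): gagtatttctGCGCATGCtctcttgccg
Alas1 (chr9:106247906-106247935, minus strand): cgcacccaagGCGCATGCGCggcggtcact
Cox6a1 (chr5:115349101-115349130, minus strand): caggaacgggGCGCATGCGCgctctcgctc
Uqcrc1 (chr9:108936668-108936697, plus strand): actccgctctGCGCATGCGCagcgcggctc
Ppara (chr15:85735735-85735764, plus strand): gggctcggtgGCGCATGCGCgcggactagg
None of these 7 genes was called in edgeR's test. Alas1 had the log2 fold change of -0.40 given above. Uqcrc1, a core subunit of respiratory complex III, had 166 and 187 CPM in wildtype and 152 and 161 CPM in the mutant (-0.17, adjusted p = 0.20). Cox6a1, a cytochrome c oxidase subunit gene, had 95.5 and 109 CPM in wildtype and 97.03 and 107 CPM in the mutant (-0.01, adjusted p = 0.968). Polrmt, the mitochondrial RNA polymerase gene, had a log2 fold change of 0.06 (adjusted p = 0.72). Ppara, a fatty acid receptor gene with 23 to 60 reads per library, had a log2 fold change of 0.35 with a 95% interval of -0.91 to 1.62.

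Across all tested genes with a promoter in the table (11602), 7.66% were called lower and 12.5% higher in the mutant. Of the 239 with the full NRF1 site, 37 were called lower (15.5%) and 5 higher (2.09%). Their median log2 fold change was -0.15, with 177 negative and 62 positive, against a median of 0 for genes with any promoter. Of the 632 with the shorter form, 12.2% were lower and 2.37% higher (median -0.14). Genes with the GABP site, 910 in all, were seldom called in either direction (2.64% lower, 2.31% higher, median -0.04). Those with the estrogen-related receptor site numbered 103, with 6.8% lower and 17.5% higher. Genes with the CREB site (404) were at 7.18% lower and 6.68% higher, and genes with the antioxidant site (1943) at 6.85% and 13.8%. In each of 14 alternative analyses the share called lower was larger with the full NRF1 site than over all promoters. With each library left out, the number called lower among genes with the full site ranged from 32 without mutant replicate 2 to 45 without mutant replicate 1. It was 19 when edgeR tested against a 1.4-fold threshold and 25 with limma on the authors' values. The number called higher was 3 without mutant replicate 1 and 7 without wildtype replicate 1, and 3 with DESeq2, the test against 1.4-fold and limma. Windows were chosen after earlier results of these data were known, base composition was not matched between the groups, and its part in these shares was not tested. Nor was the part of the cell types whose markers differed between the genotypes.

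**Figure D4:**
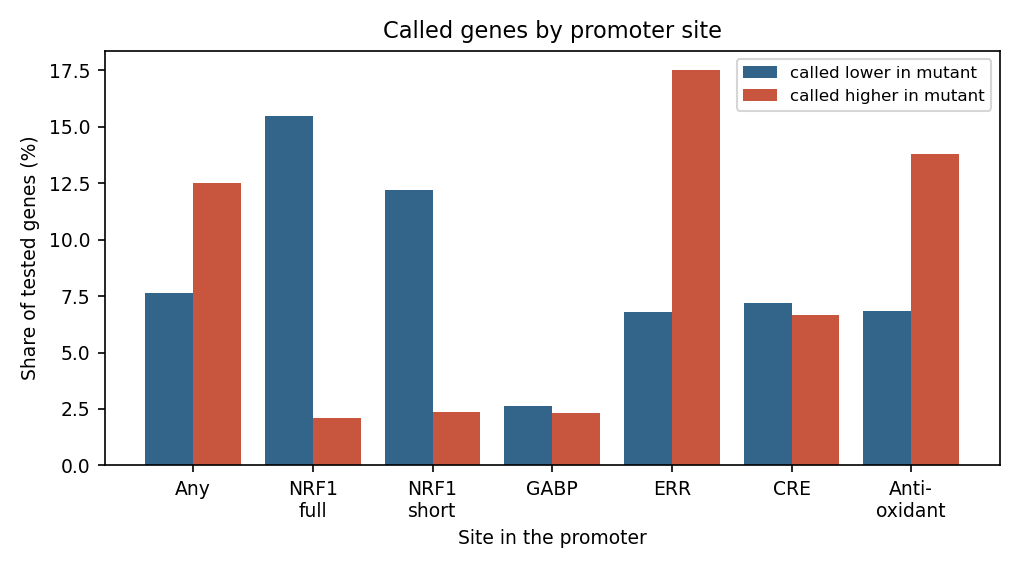
Share (%) of tested genes called lower (blue) and higher (red) in the mutant, for genes with any promoter in the table and for genes whose promoter holds each site. The full NRF1 site has 15.5% lower and 2.09% higher, against 7.66% and 12.5% for any promoter. The share higher is also low for the GABP site, at 2.31%. A gene can be in several groups.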

How the data were processed

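Per the labels and the methods, the authors made RNA-seq libraries from pooled E13.5 retinas, aligned the reads to mm10 with TopHat2 (version 2.7.2 in the submitters' notes) and counted them per gene with HTSeq. The raw whole-number counts were deposited. The authors also deposited normalized values, on a log2 scale. The submitters' notes name DESeq and limma without their roles, and how the normalized values were made is not given in the sources used here. The 5 summary rows of HTSeq, 74.0% to 75.0% of all entries per library, stayed out of library sizes and tests. Depth was 74577660 to 85933945 reads on genes, and intervals cover only counting error and the spread of 2 libraries per genotype; PCR copies are not independent molecules.

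Counts were filtered with filterByExpr (minimum 10), scaled with TMM factors (0.992 to 1.02) and tested with edgeR 4.0.16 (quasi-likelihood, Benjamini-Hochberg over 15762 genes, R 4.3.3), all 4 libraries in 1 fit without covariates. Following the thresholds of the study's methods, calls needed at least 1.4-fold and an adjusted p no larger than 0.2. Cuffdiff, used in the study, needs alignments, and these were not used here. The scripts were tested on simulated data. The 14 alternatives were DESeq2 1.42.0, limma 3.58.1 on the authors' log2 values, library-size and upper-quartile scaling, scaling without marker genes, 2 other filters, a replicate block, a stricter p, a test against 1.4-fold, and each library left out. Positions and lengths come from GENCODE M21 (GRCm38), promoters from RefSeq.

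Members, lists and tests were chosen with earlier results of these data known. Besides every member, the text names the direct partners of the members, up to 3 called genes per list and direction with the largest change and a mean of at least 1 CPM, and the 3 genes closest in profile to the most changed called member. The promoter search and its alternatives were added after seeing the data. The lists hold partners and upstream regulators, respiratory factor targets, targets of the estrogen-related receptors and PGC-1, CNC and small Maf factors with NFE2L1 processing, and markers of progenitors, ganglion cells, photoreceptor precursors, lens, erythroid cells, endothelium, pigment epithelium, periocular mesenchyme, and microglia with macrophages.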

Additional observations from a re-analysis of the deposited data

How the results depend on the processing

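Ppargc1a was called higher in all 14 alternatives (log2 fold change 0.52 to 0.91) and Ppargc1b in 13 of 14 (0.45 to 1.11); limma on the authors' values left 1 regulator called higher. Esrrb was called lower in 6 of 14 (-1.25 to -0.23), so that 0 regulators were called lower with DESeq2, upper-quartile factors, an adjusted p of at most 0.05, the test against 1.4-fold and limma, and 0 to 1 with each library left out. Pprc1 (0.29 to 0.44) and Nfe2l1 (0.17 to 0.28) stayed positive and uncalled in all 14. Uncalled values near 0 changed sign: Nrf1 to 0.0060 with upper-quartile factors; Gabpa to -0.04 without wildtype replicate 2 and -0.0079 without mutant replicate 1; Esrra to -0.02 with library sizes only, -0.03 without wildtype replicate 1 and -0.02 without mutant replicate 1; Esrrg to -0.02 without wildtype replicate 1 and -0.29 without mutant replicate 1. With each library left out, Gabpa ranged from -0.04 to 0.11, Esrra from -0.03 to 0.05 and Esrrg from -0.29 to 0.30. The cause was not tested.

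Over all genes, 2024 were called higher and 1268 lower, compared with 1188 and 743 in the test against 1.4-fold and 941 and 722 with limma; with each library left out the counts were 1703 to 1856 and 1071 to 1402. Under the test against 1.4-fold and limma, partners and upstream regulators called higher numbered 2 and 2 (3 to 5 with each library left out), estrogen-related receptor and PGC-1 targets called lower 0 and 0 (1 to 3), and genes of the CNC list 0 and 0 higher (1 to 2) and 0 and 0 lower (0 to 1, and 0 at an adjusted p of at most 0.05). Respiratory factor targets had 0 calls in all 14. Targets of the estrogen-related receptors and PGC-1 called higher numbered 2 to 4 over the 14, and the median of this list, -0.017, turned to 0.023 with upper-quartile factors and 0.02 without mutant replicate 1. Other scalings moved the median of all genes by at most 0.04 (log2). The authors' log2 values gave smaller differences than edgeR for the low-count Ppargc1b, Esrrb and Pdk4. For such genes, calls lost with limma at the same fold threshold are not a like comparison.

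With the replicate number as a block, 2 regulators were called higher and 1 lower, among 1971 and 1256 genes, and Ppargc1a and Ppargc1b had log2 fold changes of 0.80 and 0.96; it changed no call of a regulator and no count of calls in the 4 gene lists. The marker lists were not run with the block. The numbers do not pair the libraries: deviations from the genotype means correlated at -0.005 over 15762 genes. Esrrb had few reads, 49 to 122 per library, and whether depth or spread between libraries moved its call was not tested.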

Other observations

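Several partners and targets of the PGC-1 coactivators had few or no reads in these retinas. Perm1, a muscle regulator induced by PGC-1 and the estrogen-related receptors, had 44 and 57 reads in wildtype and 47 and 41 in the mutant (log2 fold change -0.26, 95% interval -1.41 to 0.90, adjusted p = 0.771 from edgeR). Pparg, the receptor for which PGC-1alpha was named, had 2 and 3 reads in wildtype and 11 and 8 in the mutant and was under the filter. Fgf21, a secreted metabolic hormone gene, had 0 reads in all 4 libraries, where a count of 0 allows up to 3 reads per library by counting error alone. Ucp3, the muscle uncoupling protein gene, had 15 and 2 reads in wildtype and 1 and 1 in the mutant and was under the filter.

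Some upstream genes differed by less than 1.4-fold with an adjusted p of at most 0.2 in edgeR; they were chosen after their values were seen. Nrip1, a corepressor of the estrogen-related receptors, had 132 and 128 CPM in wildtype and 163 and 170.4 in the mutant (log2 fold change 0.36, adjusted p = 0.00848). Zfp143, a zinc finger factor that binds promoters together with THAP11 and HCFC1, had 59.0 ± 2.53 and 48.5 ± 0.746 CPM (-0.28, adjusted p = 0.0282). Dynll1, a dynein light chain gene whose product binds NRF1, had 229 ± 0.101 and 192 ± 6.76 CPM (-0.26, adjusted p = 0.0407). The genotypes did not overlap for any of the 3.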
